A study of Mus musculus with 6 samples.

Results

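Mutations of PARK7, which encodes DJ-1, and of 8 further genes, among them PINK1, LRRK2, UCHL1, FBXO7, VPS35, ATP13A2 and HTRA2, have been linked to Parkinson disease or parkinsonism. The 9 genes were chosen by name: an entry of the array's probe report belongs to a gene when its gene name, ignoring case, is that of the gene, and the probes of a gene were kept apart. Of the 30854 gene names read from the array, 8 are among these 9. They have 17 probes, and 11 of these, from 6 genes, were bright enough to be tested. Expression of PINK1 was not analysed here, since no entry of the probe report carries its gene name.

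The cells were C2C12, an established line of mouse myoblasts, which leave the cell cycle in low serum and join into myotubes with many nuclei. Myoblasts received 60 nM of either a scramble siRNA (Scramble, n = 3) or a siRNA against the mRNA of DJ-1 (siDJ-1, n = 3) by reverse transfection with Lipofectamine RNAiMAX. After 48 h they were moved to medium with 2% horse serum, and myotubes were collected 4 days (96 h) later. RNA, of which 200 ng was labelled per sample, was hybridized to an Illumina mouse WG-6 BeadChip that measures 45281 probes, each on many beads. A single siRNA served each group, all 6 arrays lay on a single BeadChip, and the labels do not say whether the 3 samples of a group were separate cultures, so p measures only the spread between these samples, which may be technical.

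These genes act at a few points of cell maintenance. DJ-1 is a redox-sensitive protein that protects cells from oxidative stress. PINK1, a kinase, gathers on damaged mitochondria and starts their removal by mitophagy, whereas LRRK2, VPS35 and ATP13A2 act in vesicle traffic, endosomal sorting and the lysosome. Skeletal muscle is rich in mitochondria and relies on autophagy to renew them.

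The file gives each probe's signal intensity, in arbitrary units, and a detection p, which compares it with the array's negative control beads. A probe counts as detected on an array when that p is under 0.05. Between 16985 and 18179 probes were detected per Scramble array and between 18408 and 18857 per siDJ-1 array. The median standard error over the beads of a probe was 11.3, 8.30 and 8.66 on Scramble arrays 1, 2 and 3 and 7.17, 6.36 and 5.88 on siDJ-1 arrays 1, 2 and 3, so bead noise was higher on every Scramble array. The part of this difference in the results for dim probes was not tested. Signals were background-corrected, quantile normalized and put on the log2 scale, and the 17890 probes detected on at least 3 of the 6 arrays were compared between the groups with limma, and every p was adjusted across these probes (Benjamini-Hochberg). A probe is called when its adjusted p is under 0.05. Differences are siDJ-1 minus Scramble on the normalized log2 scale.

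Of the 11 tested probes of these genes, 2 were called: the PARK7 probe fell and 1 of the 2 VPS35 probes rose. Over all 17890 tested probes, 5387 (30.1%) were called, 2957 (16.5%) of them higher and 2430 (13.6%) lower in siDJ-1. The median difference was -0.11 over the 11 probes and 0.05 over all tested probes, and 5 of the 11 differences were positive. The first median was 0.02 when every probe was tested without a filter, -0.05 without background correction, -0.05 without Scramble replicate 3 or siDJ-1 replicate 1, -0.06 without siDJ-1 replicate 2 and -0.07 without siDJ-1 replicate 3. That of all tested probes moved as well, to 0.0003 without a filter and 0.03 without background correction. In 5 of the 11 the arrays of the groups did not overlap, which held for 8672 (48.5%) of all tested probes. Among the 5 is LRRK2 ILMN_1247216, which the siDJ-1 arrays alone brought past the detection filter. The counts vary with the arrays used: with siDJ-1 replicate 1 left out 2444 probes of the whole array were called, and with siDJ-1 replicate 3 left out 2612. The PARK7 call held without each of the 6 arrays in turn.

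**Figure D1:**
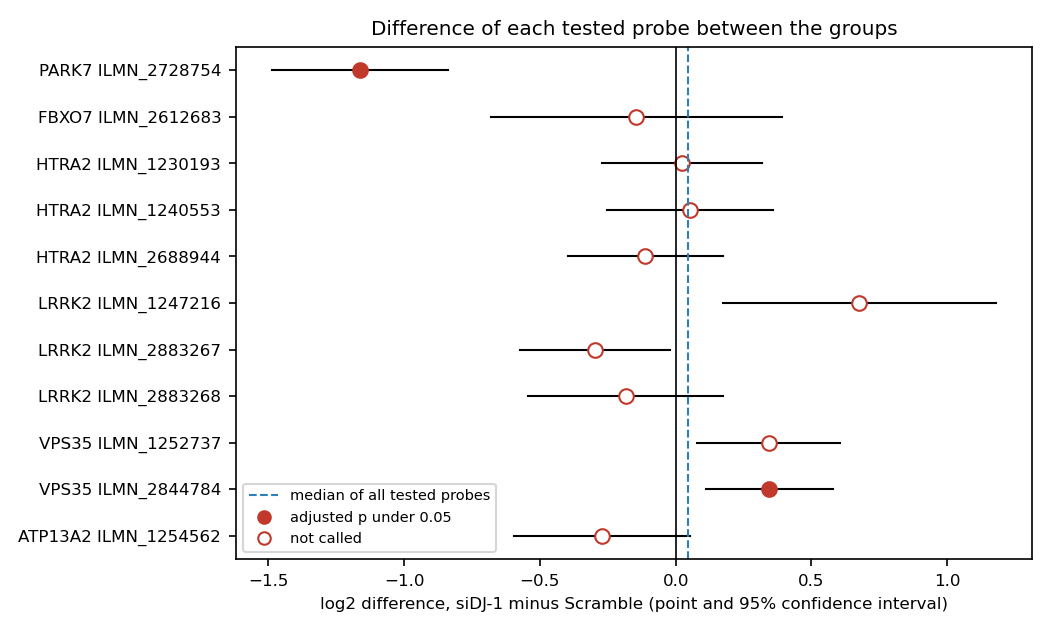
Difference in normalized log2 signal, siDJ-1 minus Scramble, of the 11 tested probes (points) with the 95% confidence interval of limma's moderated test (lines); filled points passed an adjusted p of 0.05 and the dashed line is the median of all 17890 tested probes. The PARK7 probe lies at -1.16, and the other 10 lie between -0.30 and 0.68.

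PARK7, the target of the siRNA, is measured by 1 probe (ILMN_2728754). Its signal was 12019.5, 10900.4 and 12251 on Scramble arrays 1, 2 and 3 and 5935, 6586 and 4234 on siDJ-1 arrays 1, 2 and 3. Every siDJ-1 array was below every Scramble array, as the labels call for, and siDJ-1 array 3 was the lowest. The Scramble mean after normalization was 13.53 ± 0.14 (SD, n = 3) on the log2 scale and the siDJ-1 mean 12.37 ± 0.19 (SD, n = 3). The difference was -1.16 (SE 0.14, 95% confidence interval -1.49 to -0.84), with a limma adjusted p of 0.00344, so the PARK7 mRNA fell to 44.7% of its Scramble level. Relative to the Scramble mean, the 3 siDJ-1 arrays stood at 48.1%, 48.4% and 38.3%. In bulk RNA, fewer cells expressing a gene and less RNA per cell cannot be told apart, so these values do not separate a partial knockdown in all cells from a deep one in some. An exact permutation test over the 6 arrays, counting both directions, gave p = 0.1, the smallest value that 3 against 3 arrays allow. Among all tested probes, 343 (1.92%) fell by as much as PARK7 or more.

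What the genes share in sequence was described for the 300 bases around the transcription start, 250 before it and 50 after. RefSeq (GRCm38.p6) windows matched 6 of the 9 genes (PARK7, PINK1, LRRK2, UCHL1, FBXO7 and ATP13A2), with 7 windows in all, since FBXO7 has 2 starts. The windows of PARK7, the gene knocked down, LRRK2, whose probes had differences of both signs and no call, and ATP13A2, which lies on the same chromosome as PARK7, are shown 5′ to 3′ on the strand of the gene. They lie, by RefSeq, at chr4:150909872-150910171 (minus strand), chr15:91672974-91673273 (plus strand) and chr4:140986671-140986970 (plus strand). Capitals mark matches of GGGCGG, the GC box, on either strand.
PARK7: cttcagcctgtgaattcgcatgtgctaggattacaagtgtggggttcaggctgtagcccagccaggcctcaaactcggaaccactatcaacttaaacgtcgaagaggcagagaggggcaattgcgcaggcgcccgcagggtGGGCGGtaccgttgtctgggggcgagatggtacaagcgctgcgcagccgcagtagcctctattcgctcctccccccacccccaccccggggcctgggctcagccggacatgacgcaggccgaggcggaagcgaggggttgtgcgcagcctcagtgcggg
LRRK2: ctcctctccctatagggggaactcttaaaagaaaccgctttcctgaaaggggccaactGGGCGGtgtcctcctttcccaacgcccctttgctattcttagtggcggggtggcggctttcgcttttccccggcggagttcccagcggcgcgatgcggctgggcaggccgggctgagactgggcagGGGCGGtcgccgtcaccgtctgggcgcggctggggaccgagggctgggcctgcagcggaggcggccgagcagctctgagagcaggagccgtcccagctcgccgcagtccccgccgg
ATP13A2: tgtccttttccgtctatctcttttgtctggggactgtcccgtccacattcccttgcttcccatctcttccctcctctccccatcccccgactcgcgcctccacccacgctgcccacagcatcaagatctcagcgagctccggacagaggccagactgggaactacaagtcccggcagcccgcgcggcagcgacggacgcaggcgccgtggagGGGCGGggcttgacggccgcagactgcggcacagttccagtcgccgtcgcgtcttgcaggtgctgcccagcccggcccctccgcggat

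All 3 windows are rich in GC, with 64% for PARK7, 68.7% for LRRK2 and 66.7% for ATP13A2, where the median of the 32851 windows in the table is 52.7%. They hold 22, 28 and 28 CG dinucleotides, against a median of 7. Of the windows not shown, that of UCHL1 has 50.7% GC, below the median, and 9 CG dinucleotides. The PINK1 window has 58% and 18, and the FBXO7 windows have 65.7% and 70.3%, with 31 and 40. The GC box occurs once in the PARK7 window, 2 times in that of LRRK2 and once in that of ATP13A2, and in 35.7% of all windows. It occurs in 4 of the 7 windows of these genes. None of the 7 holds TATAAA (the TATA box, in 13.6% of all windows) or TGACNNNGC (the core of the antioxidant response element, in 12.4%), and the second FBXO7 window alone holds CACGTG, an E-box found in 7.15%. Both strands were searched and no matches in the printed windows overlapped. A match describes the letters of a window and does not show that a factor binds there.

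None of the probes of HTRA2, FBXO7 and UCHL1 was called. HTRA2 encodes a serine protease of the mitochondrial intermembrane space that, once released, binds inhibitors of apoptosis. Its 3 probes were detected on all 6 arrays and none was called. They differed by 0.02 (SE 0.12), 0.05 (SE 0.13) and -0.11 (SE 0.12), with limma adjusted p of 0.908, 0.787 and 0.515. The signal of ILMN_1230193, the first of these, was 1049.5, 1199.1 and 1029.2 in Scramble samples and 1112.5, 1307.4 and 857.6 in siDJ-1 samples, so that the siDJ-1 arrays held both the highest and the lowest value. The groups overlapped in all 3 probes, and the 95% intervals reached from -0.27 to 0.32, from -0.25 to 0.36 and from -0.40 to 0.17, so changes up to these limits are not excluded. The sign of the first probe turned without Scramble replicate 1 (-0.03) or siDJ-1 replicate 2 (-0.05), and that of the second without Scramble replicate 3 (-0.05) or siDJ-1 replicate 1 (0.00 after rounding).

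FBXO7 encodes an F-box protein, the part of an SCF ubiquitin ligase that picks the substrate. Its probe was detected on all 6 arrays but was dim, with a signal of 190.5, 192.1 and 211.1 in Scramble and 188.7, 187.1 and 177.8 in siDJ-1. The siDJ-1 values all lay below the Scramble values before normalization and overlapped with them after it. The normalized difference was -0.15 (SE 0.22, limma adjusted p 0.661), and with Scramble replicate 3 left out it was 0.11, so its sign rests on that array.

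UCHL1 encodes a deubiquitinase abundant in neurons. Its probe read 155.1, 161.1 and 152.9 in Scramble, where no array detected it, and 165.5, 171.0 and 179.3 in siDJ-1, where array 3 alone did. All siDJ-1 values were above all Scramble values, but on 5 of the 6 arrays they were within the range of the negative controls, and the probe was not tested.

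**Figure D2:**
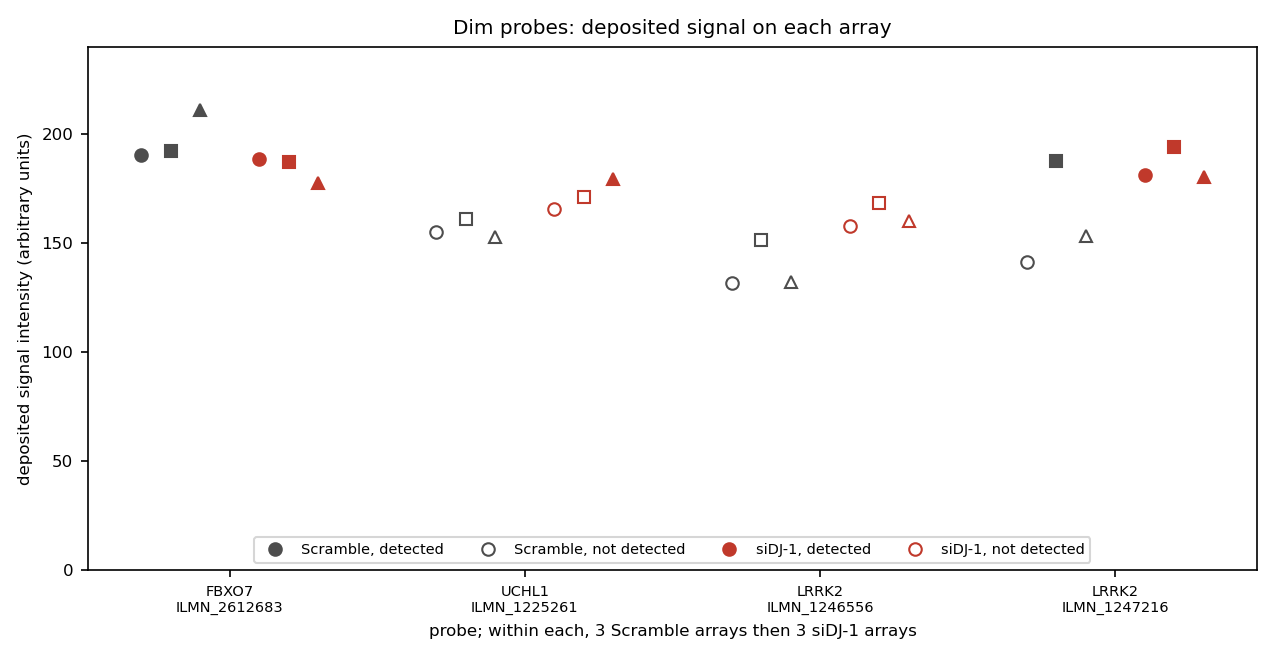
Deposited signal intensity (arbitrary units) of a UCHL1 and an LRRK2 probe that were not tested and of the dim FBXO7 and LRRK2 probes that were, with a symbol for each replicate of Scramble (grey) and siDJ-1 (red); filled symbols are arrays on which the probe was detected. The FBXO7 probe was detected on 6 arrays, whereas LRRK2 ILMN_1246556 was detected on none.

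LRRK2, a large kinase that phosphorylates Rab GTPases, had 4 probes, and none of them was called. ILMN_2883268 was detected on all 6 arrays and read 809.6, 785.3 and 710.4 in Scramble and 637.2, 878.1 and 525.9 in siDJ-1. The siDJ-1 arrays enclosed the Scramble values on both sides, and the difference of -0.18 (SE 0.15) was not called (limma adjusted p 0.392). ILMN_2883267, also detected on all 6 arrays, read 429.4, 391.7 and 409.6 in Scramble and 345.0, 389.2 and 297.4 in siDJ-1. Here every siDJ-1 array was below every Scramble array, by a narrow margin for siDJ-1 array 2, and the difference was -0.30 (SE 0.12, 95% confidence interval -0.58 to -0.02, limma adjusted p 0.0966).

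The other LRRK2 probes were at the limit of detection and lay higher in siDJ-1. ILMN_1247216 read 141.2, 187.8 and 153.5 in Scramble, where it was detected on array 2 only, and 181.3, 194.0 and 180.6 in siDJ-1, where it was detected on all 3 arrays. After normalization the groups did not overlap. The difference was 0.68 (SE 0.21, 95% confidence interval 0.17 to 1.18), not called with a limma adjusted p of 0.0514. The siDJ-1 arrays alone, where the probe was higher, brought it past the detection filter, so no rise is read from these values. The probe passed the test with Scramble replicate 2, the only Scramble array that detected it, left out (limma adjusted p 0.0201, difference 0.89). There too it met the filter through the siDJ-1 arrays alone, so no rise is read from that result. Its size depends on the background step: the difference was 0.23 without background correction and 0.37 with an offset of 50. ILMN_1246556 was not detected on any array, at 131.6, 151.4 and 132.3 in Scramble and 157.9, 168.4 and 160.3 in siDJ-1. All 4 probes carry the same RefSeq accession in the file. Since the probes detected on all arrays were lower and the others higher in siDJ-1, and none passed the test, no direction is given for LRRK2.

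VPS35 encodes the core of the retromer, the complex that returns cargo from endosomes to the Golgi and the cell surface. ILMN_2844784 read 3788, 3923 and 4115 in Scramble and 4851, 5505 and 4771 in siDJ-1. Every siDJ-1 array was above every Scramble array. Its mean was 11.91 ± 0.09 (SD, n = 3) in Scramble and 12.25 ± 0.07 (SD, n = 3) in siDJ-1, as normalized log2 signal. It rose by 0.35 (SE 0.098, 95% confidence interval 0.11 to 0.58), to 127% of the Scramble level, with a limma adjusted p of 0.0394. The rise is not large for this comparison, as 4407 (24.6%) of all tested probes rose by as much or more.

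ILMN_1252737, the second VPS35 probe, read 10486, 9646 and 10917 in Scramble and 13379, 14367 and 12716 in siDJ-1. The groups did not overlap here either, and the difference of 0.34 (SE 0.11, 95% confidence interval 0.08 to 0.60) was nearly that of the first probe. Its limma adjusted p was 0.0561, so it was not called, but it passed under 7 of the alternatives, among them no background correction (0.0134), the 75th percentile shift (0.0215) and the stricter detection filter (0.0307). Both probes were higher in siDJ-1 under every alternative processing that was tried, with differences from 0.26 to 0.50, but the call of the first was close to the threshold. It was lost without Scramble replicate 1 (adjusted p 0.0777) or 2 (0.0947), without siDJ-1 replicate 1 (0.0945), 2 (0.0800) or 3 (0.118), and when all probes were tested without a filter (0.0910). With the replicate number as a block its adjusted p was 0.0673.

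ATP13A2 encodes a lysosomal P5-type ATPase that exports polyamines from the lysosome. Its probe read 288.4, 302.7 and 309.5 in Scramble and 254.6, 298.6 and 237.9 in siDJ-1. After normalization siDJ-1 array 2 lay among the Scramble arrays and the other siDJ-1 arrays lay below them, and the difference of -0.27 (SE 0.14, 95% confidence interval -0.59 to 0.05) was not called (limma adjusted p 0.174).

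**Figure D3:**
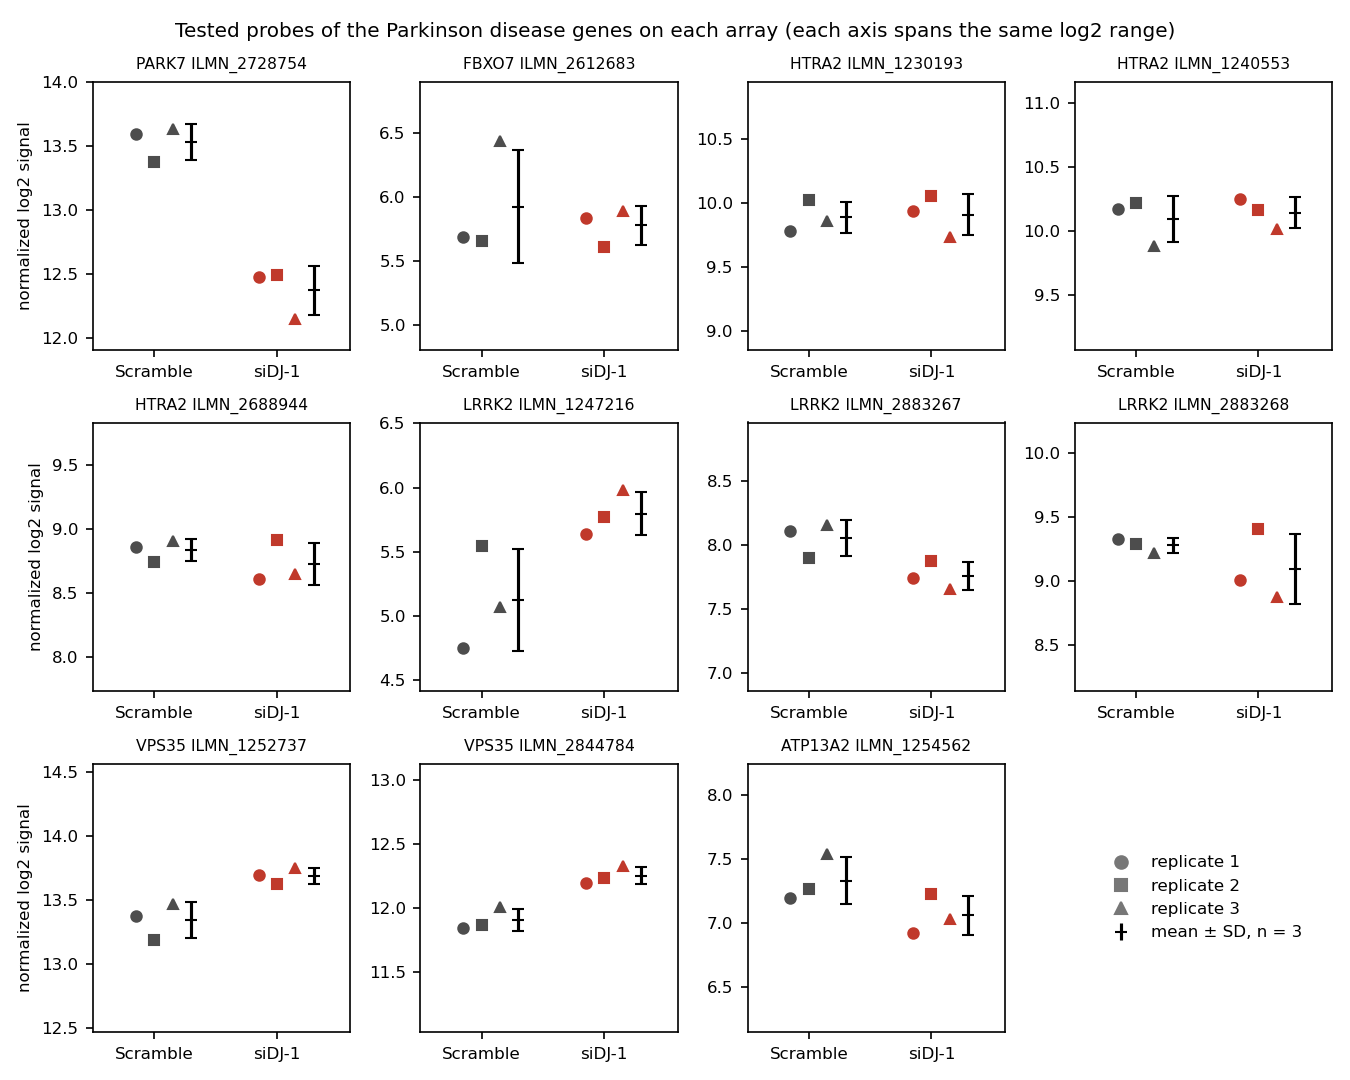
Normalized log2 signal of the 11 tested probes on each of the 3 Scramble (grey) and 3 siDJ-1 (red) arrays, with the mean and SD of each group in black; every vertical axis spans the same log2 range. PARK7 falls from 13.53 to 12.37, both VPS35 probes are higher on every siDJ-1 array, and the LRRK2 probes, none of them called, have differences of both signs.

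The probes most like PARK7 were sought by Pearson's r of the normalized log2 signal over the 6 arrays, among 14703 tested probes detected on all of them. The 5 highest were for Olfml2b (r 0.999, difference -0.89), Nlrc3 (0.997, -1.20), Atf4 (0.997, -0.48), Psmc1 (0.997, -0.33) and Rab44 (0.996, -0.67). All 5 were lower on every siDJ-1 array than on any Scramble array, as PARK7 was, so r carries the difference between the groups, and it is given as a description with no test.

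The labelled cell type was checked against its markers. All 10 myotube marker genes were tested, Acta1 having the brightest probe, and none of the 15 tested probes was higher and 8 were lower in siDJ-1 (53.3% called, where 30.1% of all tested probes were called and 13.6% were lower), with a median of -0.52 (-0.32 under a shift to a common 75th percentile). Among them were both Myh1 probes, at -1.92 and -2.19, and 3 Myh8 probes, between -1.11 and -1.01, whereas Acta1 (-0.01) and Myog (0.22 and -0.11) were not called. The signal of the list, summed above each array's median, came to 190200, 203400 and 181400 in Scramble and 157100, 184500 and 137500 in siDJ-1. Myh3, also a myosin heavy chain, was at -0.17 and was not called. The part of these marker differences in the values of the other genes was not tested. Of 7 markers of proliferating myoblasts, Pax7 was not detected on any array and Myf5 on 2, and of the 8 tested probes none was higher and 1, for Ccnb1, was lower (12.5% called, beside 30.1% of all tested probes; median 0.22, and 0.09 with no filter). The summed signal of this list was 3977, 4073 and 3519 in Scramble and 3630, 4566 and 3285 in siDJ-1, Cdk1 having the brightest probe. The Ccnb1 call was lost without siDJ-1 replicate 1 or 3, which left 0 called probes, whereas 3 probes were called under the stricter filter and 2 without background correction, under the 75th percentile shift, with a variance trend or without moderation.

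Markers of other cell types were mostly absent. No probe of the 4 endothelial and 4 adipocyte marker genes was tested. Of 5 macrophage genes only Cd68 had a tested probe, which was not called (0.52) but passed the test without Scramble replicate 2 (1 called probe, at 0.83). Its difference was 0.35 without Scramble replicate 3, 0.27 with an offset of 50 and 0.19 without background correction. Ptprc, Csf1r and Itgam were not detected on any array. For neurons, Tubb3, Snap25, Rbfox3 and Nefl were not detected on any array, whereas Stmn2, the brightest of the list, rose by 0.91, a Syn1 probe rose by 0.45 and Gap43 fell by 0.55. The other Syn1 probe and the tested probe of Map2 (1 of its 6 probes) were not called. Of 5 tested neuronal probes 2 were thus higher and 1 lower (60% called, beside 30.1% of all tested probes). Their median was 0.45, and 0.01 with no filter, and 1 was called without siDJ-1 replicate 1 or 3. The summed neuronal signal was 763.2, 669.3 and 691.6 in Scramble and 1063, 1099 and 905.1 in siDJ-1, and its part in the other results was not tested.

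Genes that work with these 9, and further genes linked to Parkinson disease, were described in 8 lists. No list was tested as a set, and each count stands beside the 30.1% of all tested probes that were called and their median of 0.05. A probe not detected on any array of a group gets a bound, on the background-corrected scale, in place of a fold: the mean of the other group over the mean of the lowest detected signal of each array of that group, or the probe's own value where higher. No list median changes when such a probe is set to its bound.

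**Figure D4:**
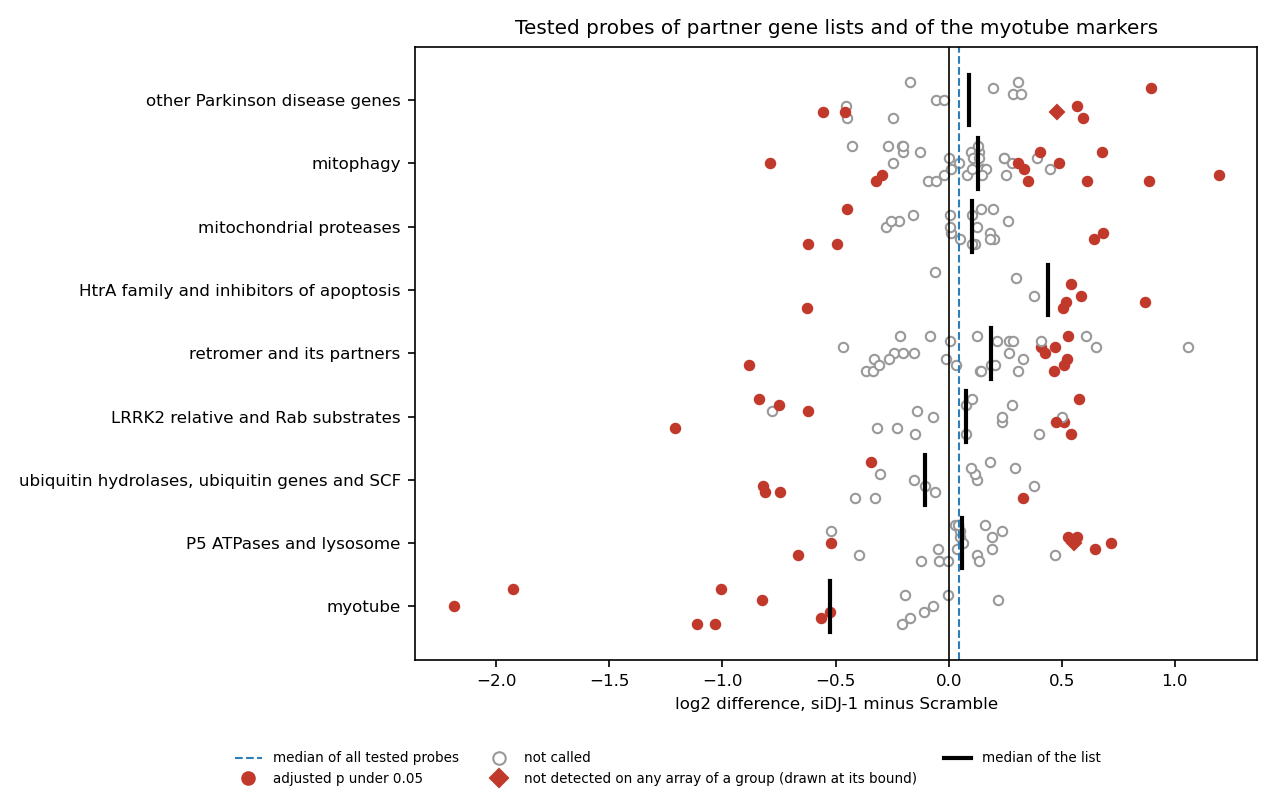
Difference in normalized log2 signal, siDJ-1 minus Scramble, of the tested probes of the 8 lists and of the myotube markers. Filled symbols passed an adjusted p of 0.05, black bars are list medians, and the dashed line is the median of all tested probes. Diamonds are probes not detected in a group, drawn at their bound. A probe whose bound left no difference in its direction is not drawn. The list medians run from -0.10 to 0.44 and that of the myotube markers is -0.52.

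Other Parkinson disease genes. Of 14 further genes linked to the disease, 11 had a tested probe, and of their 16 probes 4 were higher and 2 lower (37.5% called, median 0.09). Synj1 and Chchd2 were not detected on any array. Gch1, the first enzyme of tetrahydrobiopterin synthesis, rose with both probes, by 0.89 (SE 0.14) and 0.59 (SE 0.11). Eif4g1, a scaffold of translation initiation, fell with both probes, by 0.56 (SE 0.11) and 0.46 (SE 0.12). The calls for Eif4g1 were lost without siDJ-1 replicate 1 (adjusted p 0.0502 and 0.106), and that of the second probe also without Scramble replicate 2 (0.0818), Scramble replicate 3 (0.0683) or siDJ-1 replicate 3 (0.0810) and under a shift to a common 75th percentile (0.0564). Without siDJ-1 replicate 1 the list had 3 called probes and a median of -0.03. The median was 0.18, 0.05 and 0.14 without Scramble replicate 3, siDJ-1 replicate 2 and siDJ-1 replicate 3, -0.17 under the stricter detection filter and 0.03 without background correction, so it has no steady sign.

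Mitophagy. Of 32 genes of mitophagy and its receptors, 30 had a tested probe, and of 41 probes 9 were higher and 3 lower (29.3% called, median 0.13, and 0.08 without background correction). Bnip3, a mitophagy receptor on the outer mitochondrial membrane, rose by 1.19 (SE 0.16, limma adjusted p 0.00454). Gabarapl1, which sits on the autophagosome membrane, rose by 0.89 (SE 0.11, adjusted p 0.00374). Tomm40, the channel of the outer membrane translocase, fell by 0.79 (SE 0.17), and Rhot2, which anchors mitochondria to motor proteins, fell by 0.32 (SE 0.094) with 1 of its 3 tested probes. The other 2 Rhot2 probes, at -0.20 and -0.05, were not called. The Rhot2 call did not hold without any 1 of the 6 arrays (adjusted p between 0.0671 and 0.146) or under the 75th percentile shift (0.143), and that of Tomm40 not without siDJ-1 replicate 1 (0.0667) or 3 (0.0596). The list had 7, 4 and 6 called probes without Scramble replicates 1, 2 and 3 and 3, 7 and 3 without siDJ-1 replicates 1, 2 and 3.

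Mitochondrial proteases. Of 13 genes of the mitochondrial proteases to which HTRA2 belongs by function, 12 had a tested probe, and of 23 probes 2 were higher and 3 lower (21.7% called, median 0.10). Clpx, the unfoldase of the matrix protease ClpXP, rose by 0.64 (SE 0.092) with 1 probe and was at 0.18, not called, with the other. Immp2l, of the inner membrane peptidase, rose by 0.68 (SE 0.17). Parl, the rhomboid protease of the inner membrane that cleaves PINK1, fell with both probes, by 0.49 (SE 0.12) and 0.45 (SE 0.13). Afg3l1, of the matrix AAA protease, fell by 0.62 (SE 0.18) with 1 of 5 probes. The call of Clpx held with each array left out. Those of Immp2l, Afg3l1 and the Parl probe with the larger fall were lost without Scramble replicate 2 (adjusted p 0.0661, 0.0960 and 0.0526), siDJ-1 replicate 1 (0.0806, 0.0685 and 0.0790) or siDJ-1 replicate 3 (0.0830, 0.128 and 0.0801), those of Immp2l and Afg3l1 also without siDJ-1 replicate 2 (0.0576 and 0.0871), and that of Afg3l1 also without Scramble replicate 3 (0.0986) or without background correction (0.0790). The median was 0.03, 0.04 and 0.05 without Scramble replicate 1, Scramble replicate 2 and siDJ-1 replicate 1, and 0.04 without background correction. The list had 1 called probe without Scramble replicate 2, siDJ-1 replicate 1 or siDJ-1 replicate 3, and 3 without Scramble replicate 3 or siDJ-1 replicate 2. It also had 1 with no filter and in a test without moderation. Where 1 was called it was Clpx, so the second Parl probe was not called there either.

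HtrA family and inhibitors of apoptosis. Of 8 relatives and targets of HTRA2, 5 had a tested probe, and of 10 probes 5 were higher and 1 lower (60% called, median 0.44). The median was 0.22 without background correction and 0.22 with no filter. Birc2, an inhibitor of apoptosis, rose with 2 of its 3 probes, by 0.87 (SE 0.10) and 0.59 (SE 0.12), and the other was at -0.06. Diablo, which like HTRA2 leaves mitochondria to bind such inhibitors, fell by 0.62 (SE 0.095, limma adjusted p 0.00607). The other 3 probes called higher, named after their values were seen, were both of Htra1 (0.50 and 0.52), a secreted relative of HTRA2, and 1 of Htra3 (0.54). This Htra3 probe was dim and was detected on 1 Scramble array and 3 siDJ-1 arrays. The siDJ-1 arrays alone brought it past the detection filter, so its call is not read as a rise. The other Htra3 probe, at 0.30, was not called. Xiap, Birc3 and Htra4 were not tested. The second Birc2 probe was not called without siDJ-1 replicate 1 (adjusted p 0.0524), which left 4 called probes.

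Retromer and its partners. Of 19 genes around VPS35, 17 had a tested probe, and of 37 probes 7 were higher and 1 lower (21.6% called, median 0.19, and 0.12 without background correction). Snx1, a sorting nexin that works with the retromer, rose by 0.53 (SE 0.11), and Vps26b, of the complex itself, rose by 0.52 (SE 0.13). Rab7, the GTPase that recruits the retromer to late endosomes, fell by 0.88 (SE 0.12, limma adjusted p 0.00454) with 1 of its 3 tested probes. The mean signal of that probe was 410.6 in Scramble and 273.1 in siDJ-1. The others, at -0.37 and -0.15, were not called, and the last of these was the brightest Rab7 probe (2938 in Scramble and 2746 in siDJ-1). The other parts of the VPS35 core complex, named here for that role and not for their values, were not called: the Vps26a probes were at -0.22 and -0.47 and the Vps29 probes at -0.26, -0.08 and -0.20. Their differences were thus negative where those of VPS35 were positive, and the difference between the genes was not tested. Without siDJ-1 replicate 1 or 3 the calls of Snx1 (adjusted p 0.0600 and 0.0522) and Vps26b (0.0841 and 0.0802) were lost, that of Vps26b also without Scramble replicate 2 (0.0620) or 3 (0.0619). The list had 4 and 5 called probes without Scramble replicates 2 and 3, and 3 without siDJ-1 replicate 1 or 3.

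LRRK2 relative and Rab substrates. Of 14 genes, 13 had a tested probe, and of 22 probes 4 were higher and 4 lower (36.4% called, median 0.08). The list also holds Rilpl1, Rilpl2 and Ppm1h, and a place in it does not mark a Rab gene as a substrate of LRRK2. Rab38, a GTPase of lysosome-related organelles, fell with both probes, by 1.21 (SE 0.12, limma adjusted p 0.00284) and 0.84 (SE 0.15). Rab3a, of regulated exocytosis, rose by 0.58 (SE 0.11) with 1 probe and was at 0.50, not called, with the other, and Rilpl2, an effector that binds phosphorylated Rab proteins, rose by 0.54 (SE 0.095). These 4 calls held with each array left out. Rab8a, named after its values were seen, was called lower with both probes, by 0.62 (SE 0.14, limma adjusted p 0.0169) and 0.75 (SE 0.12, limma adjusted p 0.0071). The Rab8a calls were not followed through the alternatives. Lrrk1, named for its place in the family, the closest relative of LRRK2, was at 0.08 and -0.15 with its probes and was not called. The list had 5 called probes without siDJ-1 replicate 1 or 3, and its median was 0.04 without Scramble replicate 3, 0.12 without siDJ-1 replicate 2, 0.13 under the 75th percentile shift and 0.0047 with no filter.

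Ubiquitin hydrolases, ubiquitin genes and SCF. Of 13 genes around UCHL1 and FBXO7, 11 had a tested probe, and of 17 probes 1 was higher and 4 lower (29.4% called). The median was -0.10, but 0.14 under the 75th percentile shift and 0.08 under that shift without background correction, so its sign depends on the scaling. Cul1, the scaffold of the SCF ligase in which FBXO7 works, fell by 0.81 (SE 0.12, limma adjusted p 0.00621), and its other probe, at -0.32, was not called. Psmf1, a proteasome inhibitor that binds FBXO7, was called lower by 0.82 (SE 0.22) with a probe detected on 3 Scramble arrays and 1 siDJ-1 array. The Scramble arrays, where it was higher, brought this probe past the detection filter, so its call is not read as a fall. The other tested Psmf1 probe, at 0.11, was not called. Uchl5, a proteasome-bound relative of UCHL1, rose by 0.33 (SE 0.096) with 1 of 4 probes. The Cul1 call held with each array left out, whereas that of Uchl5 was lost whichever array was left out (adjusted p between 0.0603 and 0.143). That of Psmf1 was lost without Scramble replicate 2 (0.0897) or 3 (0.0836) and without siDJ-1 replicate 1 (0.0554), 2 (0.0959) or 3 (0.101). The list had 3, 2 and 2 called probes without Scramble replicates 1, 2 and 3 and 2, 2 and 3 without siDJ-1 replicates 1, 2 and 3.

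P5 ATPases and lysosome. Of 16 genes around ATP13A2, 14 had a tested probe, and of 26 probes 5 were higher and 2 lower (26.9% called, median 0.06). Lamp2, a membrane protein of the lysosome, had 7 tested probes, of which 4 were called higher. ILMN_3074259 rose by 0.72 (SE 0.11, limma adjusted p 0.00585). A dim one, detected on no Scramble array and on all siDJ-1 arrays, was at least 1.47-fold higher on the background-corrected scale. It passed the detection filter through the siDJ-1 arrays alone, so its call (limma adjusted p 0.0151) is not read as a rise. That bound holds for this scale alone, since without background correction the log2 difference was 0.39. With any siDJ-1 array left out the probe was detected on 2 arrays and was not tested. Among the relatives of ATP13A2, Atp13a3 fell by 0.67 (SE 0.13) with 1 of 2 tested probes and Atp13a1 by 0.52 (SE 0.11) with 1 of 2 tested probes. Their other tested probes, at 0.24 and -0.40, were not called, and Atp13a4 and Atp13a5 were not detected on any array. Without siDJ-1 replicate 1 the calls of Atp13a3 (adjusted p 0.0502) and Atp13a1 (0.0642) were lost and the list had 3 called probes. Its median was 0.09 without Scramble replicate 3 and 0.11 under the 75th percentile shift.

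Several of these calls also rest on the processing. When every probe was tested without a filter, the limma adjusted p exceeded 0.05 for the second Eif4g1 probe (0.0694), Rhot2 (0.0979), Immp2l (0.0564), Afg3l1 (0.0925), Parl (0.0547), Vps26b (0.0538), Uchl5 (0.0995) and Psmf1 (0.0741). The mitophagy list then had 5 called probes, the mitochondrial proteases 1, the retromer list 5 and the ubiquitin list 2. With the replicate number as a block, the calls of Rhot2 (0.0951), Afg3l1 (0.0943), Uchl5 (0.0829) and Psmf1 (0.0725) were lost, and the mitophagy list had 5 and the ubiquitin list 2. With a variance trend the retromer list had 14 called probes and the ubiquitin list 9, which it also had without background correction, and the trend ended the Afg3l1 call (0.0641). The Psmf1 call was lost (0.0629), as was that of Afg3l1 (0.0948), under the 75th percentile shift without background correction. A test without moderation ended the calls of Tomm40 (adjusted p 0.0640), the second Eif4g1 probe (0.0593), Immp2l (0.0776), Afg3l1 (0.111), Parl (0.0509), Vps26b (0.0563), Psmf1 (0.105) and the dim Lamp2 probe (0.0653). The size of a dim probe's difference depends on the background step: without background correction it was 0.50 for Bnip3, 0.38 for Gch1, -0.27 for Tomm40, -0.21 for Afg3l1, -0.53 for Rab7, -0.78 and -0.43 for Rab38 and -0.27 for Psmf1. The calls of Gch1 ILMN_2753029, Bnip3, Gabarapl1, Clpx, Birc2 ILMN_1226186 and Diablo held in every setting that tested them. So did those of Rab7 ILMN_2618549, both Rab38 probes, Rab3a, Rilpl2 ILMN_2763710, Cul1 and Lamp2 ILMN_3074259.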

How the data were processed

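RNA of 6 C2C12 myotube samples, 3 Scramble and 3 siDJ-1, was measured on a single Illumina BeadChip. The deposited values are mean bead intensity per probe with its standard error, which the authors exported without normalization or background subtraction, and a detection p-value, which the authors' analysis software, GenomeStudio, computed against negative control beads. Signals were corrected and quantile normalized with neqc of limma 3.58.1 (R 4.3.3) with an offset of 16. Those detected (p under 0.05) in 3 or more of the 6 samples were compared with limma, p adjusted by Benjamini-Hochberg over all of them. The limma fit was tested on simulated data with equal noise on all arrays and few changed probes. These arrays differ in both, so that test does not show how the fit does here. The number of arrays limits the precision.

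Named genes are the 9 genes; in each of 8 gene lists, up to 2 called probes with the largest rise and up to 2 with the largest fall (all where 4 or fewer were called); and the 5 probes most correlated with PARK7. Further names were added after their values were seen. Markers of myotubes, proliferating myoblasts, neurons, macrophages, endothelial cells and adipocytes were also described. The genes and lists were chosen with earlier results of these data known. Of the 9 genes 1, and of the other Parkinson disease genes 2, are not reported here by name.

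Alternatives were no background correction, an offset of 50, arrays aligned at their 75th percentile, both of the first and the last, testing every probe, testing those with p under 0.01 in all 6 samples, a variance trend, array weights, a test without moderation, the replicate number as a block, and each array left out.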

Additional observations from a re-analysis of the deposited data

How the results depend on the processing

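The fall of PARK7 passed the test under every alternative tried, with differences from -1.16 to -1.0 under other settings and from -1.24 to -1.05 with an array left out. The number of called probes, 5387, was 3519 with no filter, where 45281 probes share the adjustment, 3674 in a test without moderation, up to 6470 (variance trend) under other settings, and from 2444 to 5302 with an array left out. Of the 11 probes of the Parkinson disease genes, 2 were called. Under 7 alternatives 3 were called, with no filter 1 was called, with the replicate number as a block (replicate block) 1 was called, and with an array left out from 1 to 2 were called. The cause was not tested. With the replicate block 4350 probes of the array were called. The labels do not say that replicate numbers pair samples of the groups, and deviations from the group mean correlated between same-numbered arrays with r of 0.05, 0.05 and 0.02.

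For the tested probes of these genes other than PARK7, 54 of the results with an array left out kept their side of the threshold, 1 passed it and 5 no longer did; under other settings 89 kept theirs, 7 passed it and 2 no longer did. Under the stricter filter FBXO7 and LRRK2 ILMN_1247216 gave no value. Signal over background limits UCHL1 and the dim LRRK2 probes.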
